A study of Rattus norvegicus with 5 samples.

Results

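S-DTMS and DTMS were compared in infarcted rat hearts to see what SNAP adds where the suture is already in place. DTMS is a conductive hydrogel suture with a microchannel through which fluid can be pumped. S-DTMS is the same suture delivering SNAP, a nitric oxide donor. These are 2 of the 5 libraries of the series, chosen by their treatment labels, and 13059 of 20646 listed genes entered the comparison because their FPKM (a fragment count divided by the length of the gene and by the library total) was at least 1 in either library.

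All 5 groups were male SD rats aged 7 to 8 weeks. Normal rats had no infarct, and MI rats had the left anterior descending artery ligated with no further treatment. The SNAP group received SNAP by injection into the infarcted area, the DTMS group the suture stitched over that area, and the S-DTMS group the suture with SNAP through it. The methods describe saline through the reservoir for a sutured arm without drug, under a name that the labels do not use. One sentence of the methods also lists the SNAP group among the rats that were stitched, while its label names SNAP alone, and the label is followed here. The label of the S-DTMS sample spells it S-DTNS. The tissue was heart by the labels and left ventricular wall by the methods. It was taken 1 month after treatment by the labels and a week after by the methods. Each group has 1 library here, so the differences below could not be set against the spread between rats, and no test was made.

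Nitric oxide activates soluble guanylate cyclase, and the cyclic GMP it makes relaxes vascular smooth muscle. In the heart, nitric oxide from endothelial cells is also known for keeping platelets and leukocytes from adhering to the vessel wall, and donors such as SNAP release it without the enzyme. After an infarct, dead muscle is cleared by inflammatory cells and replaced by a collagen scar. In whole ventricular wall, a lower value of a gene can come from fewer cells of the type that makes it or from less RNA per cell, and these cannot be told apart.

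The genes are listed under rat Ensembl identifiers, and none of the 20646 could be paired with a symbol through the reference table used here. Genes were therefore grouped by their level, their length and their behaviour in the other libraries, not by function, and the tissue label was not checked against marker genes. No promoter or other sequence is shown for the same reason.

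The depth behind the values was worked out from the FPKM values and was 16731024 fragments for DTMS and 17037939 for S-DTMS, a gap of 1.80%. The other 3 libraries had 16785936 to 17379225 fragments. The S-DTMS library stood apart from the rest. It differed by a log2 change of at least 1 on both scales described below from each other library at 1150 to 1670 genes, which were 8.88% of those tested in the pair with SNAP, 10.1% with Normal, 10.9% with DTMS and 12.6% with MI. The 6 pairs without it differed at 534 to 810 genes. These were 4.22% for DTMS against SNAP, 4.55% for DTMS against MI, 5.49% for DTMS against Normal, 5.70% for SNAP against MI, 6.04% for MI against Normal and 6.22% for SNAP against Normal. With 1 library a group, the S-DTMS treatment and the S-DTMS library cannot be told apart.

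More genes were higher than lower in S-DTMS on the values as deposited, and the excess turned round after scaling. A gene was counted when log2(FPKM + 1) differed by at least 1, a scale that understates the change of low genes. As deposited, S-DTMS exceeded DTMS at 1309 of 13059 genes (10%) and was lower at 635 (4.86%), so that 67.3% of the counted genes were higher. Scaling by the median of ratios divides each library by the median, over genes, of its value relative to the geometric mean of the 5 libraries. On this scale 785 genes (6.01%) were higher and 971 (7.44%) lower, and 44.7% of the counted genes were higher.

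All genes together were shifted between the libraries. Their median change was 0.27 as deposited and 0.03 after scaling. Of the 13059 genes, 8929 were above 0 as deposited and 6837 after scaling. The lower and upper quartiles of the changes were -0.13 and 0.62 as deposited and -0.37 and 0.38 after scaling.

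Both scales counted 785 genes as higher and 635 as lower in S-DTMS (6.01% and 4.86% of 13059), and these 1420 genes are the ones followed below. By this rule the rises are those counted after scaling and the falls those counted as deposited, so the balance of 785 to 635 belongs to neither scale alone. They were higher by a median of 1.58 as deposited and 1.36 after scaling, or lower by a median of -1.35 and -1.55. When both scales had to reach 2, there were 124 higher and 94 lower genes. At a limit of 3 there were 24 and 22 genes, and at a limit of 4 there were 9 and 7.

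**Figure D1:**
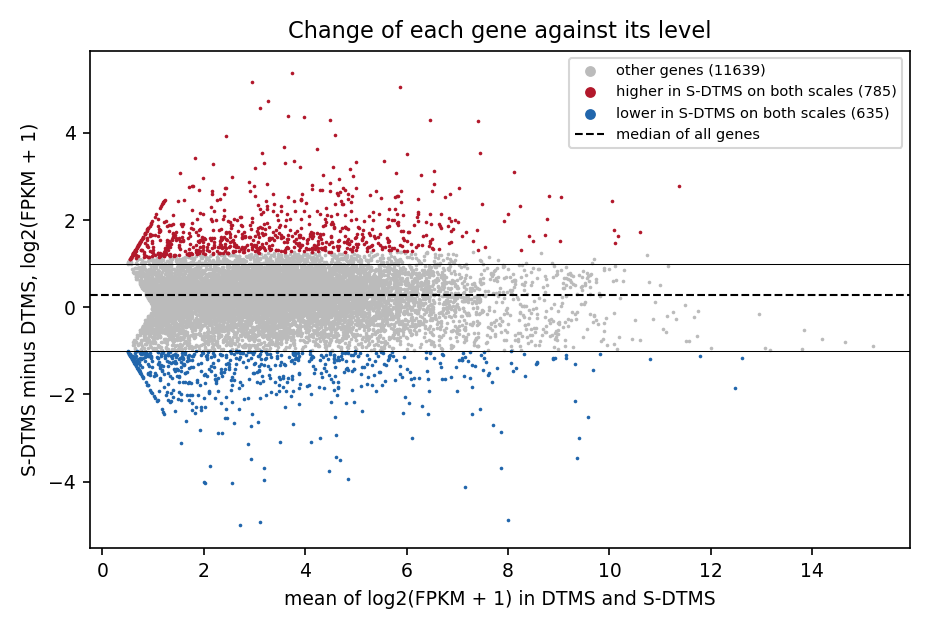
Change of 13059 genes from DTMS to S-DTMS on log2(FPKM + 1) against the mean of log2(FPKM + 1) in the 2 libraries, 1 point a gene. The thin lines mark a change of 1 in either direction, and the dashed line marks the median change of all genes, 0.27. The 785 genes higher (red) and 635 lower (blue) on both scales are spread over the whole range of levels, and the dashed line lies above 0.

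Most of these genes rested on many fragments. The 785 higher genes had a median of 651 fragments in the 2 libraries together and the 635 lower genes 417, beside 732 over all genes tested. At least 20 fragments stood behind 677 of the higher genes (86.2%) and 533 of the lower genes (83.9%), beside 96.2% of all tested.

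The higher genes made up a larger part of the S-DTMS library than of any other, and the lower genes a smaller part. The higher genes held 2.35% of the DTMS fragments and 9.26% of the S-DTMS fragments. In Normal, MI and SNAP they held 4.07%, 2.54% and 3.20%, so S-DTMS was above all 4 other libraries. The lower genes held 10.1% of the DTMS fragments and 3.43% of the S-DTMS fragments, with 7.14% in Normal, 10.04% in MI and 9.26% in SNAP, so that S-DTMS was below the others. Since the genes were chosen by these 2 libraries, the direction of both shares in them is fixed by the choice.

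The balance of falls and rises in S-DTMS varied with the level of a gene. Of the 261 genes with a mean FPKM of at least 300 in the 2 libraries, 28 were lower on both scales (10.7%) and 19 higher (7.28%). As deposited the numbers were 28 lower and 25 higher, and after scaling alone 60 and 19. Of the 466 genes between 100 and 300, 39 were higher and 40 lower on both scales. There, 63 were higher and 40 lower as deposited, and 39 and 68 after scaling alone. Of the 567 genes below 1, which passed the filter through 1 library alone, 61 were higher (10.8%) and 78 lower (13.8%) on both scales. As deposited these were 86 and 78, and after scaling alone 61 and 86. Of the 1763 genes between 30 and 100, 149 were higher on both scales (8.45%) and 77 lower (4.37%), with 235 higher and 77 lower as deposited and 149 and 129 after scaling alone. Of the 3597 genes between 10 and 30, 184 were higher (5.12%) and 121 lower (3.36%) on both scales. Here 345 were higher and 121 lower as deposited, but 184 and 202 after scaling alone, so the balance there turned with the scale. The median change after scaling was 0.06 between 10 and 30, 0.03 between 30 and 100, -0.10 between 100 and 300, and -0.40 at 300 or more. As deposited it was 0.32, 0.30, 0.18 and -0.12.

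**Figure D2:**
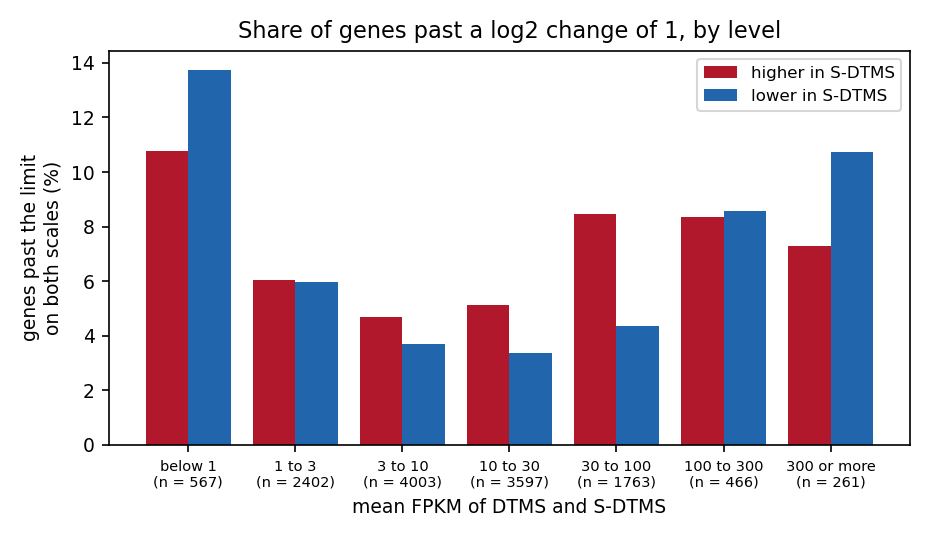
Percent of genes past a log2 change of 1 on both scales, by mean FPKM of DTMS and S-DTMS, with the number of genes in each class under its bars. Red bars are genes higher in S-DTMS and blue bars genes lower. Between 30 and 100 the red bar (8.45%) stands above the blue one (4.37%). At 300 or more the blue bar (10.7%) stands above the red one (7.28%), and below 1 likewise (13.8% against 10.8%). Red bars equal the shares counted after scaling and blue bars those counted as deposited.

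The most abundant genes were lower in S-DTMS without exception among the first 10. These 10 genes by mean FPKM of the 5 libraries, each with a mean above 7567, changed by -1.85 to -0.15 as deposited, with a median of -0.92. After scaling, the changes ran from -2.13 to -0.43, and 8 of the 10 were past -1, while 2 were past it as deposited. Together they held 21.6% of the DTMS fragments and 11.8% of the S-DTMS fragments. The same genes held 15.96% in Normal, 20.996% in MI and 22.5% in SNAP, so DTMS lay among the infarcted libraries and S-DTMS below Normal. In S-DTMS, 7 of the 10 had the lowest value of all 5 libraries on either scale.

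The fall was not shared by all abundant genes. Of the first 100, 60 were lower in S-DTMS as deposited and 67 after scaling. By at least 1, 12 were lower and 9 higher as deposited, and 30 lower and 6 higher after scaling. The largest rise among them was 2.77 and the largest fall -3.46. The first 100 held 37.8% of the DTMS fragments and 27.0% of the S-DTMS fragments. FPKM is relative to the library total, so a lower share of such genes raises the value of every other gene. The median change of all genes was 0.27 as deposited, and the part of the share in this shift was not tested.

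The shares also varied with gene length. Where either library had an FPKM of 10 or more, 8.84% of the 1029 genes shorter than 1000 bases were higher on both scales and 6.41% lower. As deposited 131 of them were higher and 66 lower, and after scaling alone 91 and 106, so the balance turned with the scale. For the 2304 genes from 1000 to below 2000 bases the shares were 6.90% and 5.03%, with 269 higher and 116 lower as deposited and 159 and 196 after scaling alone. Between 2000 and 4000 bases, 2438 genes had shares of 5.95% and 4.18%, with 272 and 102 as deposited and 145 and 180 after scaling alone. For the 1004 genes of 4000 bases or more the shares were 7.07% and 3.49%, with 128 higher and 35 lower as deposited and 71 and 56 after scaling alone. The share of higher genes thus did not fall steadily with length. The median change after scaling went from -0.02 in the shortest to 0.14 in the longest class. Lengths are those implied by the FPKM values and can be too short for genes whose fragments share a divisor.

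Some genes were seen in 1 of the 2 libraries alone. Among the 13059 genes tested, 90 were listed at 0 in DTMS and 67 at 0 in S-DTMS. They passed the filter only through the library where they were seen. With 0 in 1 library and at least 1 in the other, log2(FPKM + 1) differs by at least 1. All of them therefore meet the limit as deposited by construction. Of the 90 genes, 80 also meet it after scaling and are among the 785 higher genes. All 67 are among the 635 lower genes. These places follow from the filter and the scaling and are no result about the genes. Their fragments in the other library were few, with a median of 3 in both sets and a highest value of 61 in S-DTMS and 77 in DTMS. At least 10 fragments in the other library were reached by 8 of the 90 and 14 of the 67. Of the 90 genes, 30 were also at 0 in Normal, MI and SNAP, and of the 67 genes, 14 were. The share of all genes tested at 0 in Normal, MI and SNAP is not given here.

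Where either library had an FPKM of 10 or more, the largest rise was that of ENSRNOG00000022490. Its FPKM was 48.1 in Normal, 123 in MI, 43.4 in SNAP, 1.09 in DTMS and 85.2 in S-DTMS. DTMS was far below the other 4 libraries, among which S-DTMS took the second place after MI. The change was 5.37 as deposited and 5.13 after scaling, with 8 fragments in DTMS and 636 in S-DTMS. The ratio of S-DTMS to DTMS was 78.1, with an exact 95% interval of 39.4 to 182 that, like those below, covers counting error only.

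ENSRNOG00000015156 had the second largest rise, by 5.17 as deposited and 4.98 after scaling. It came before ENSRNOG00000022490 with a pseudocount of 0.1 (6.89 against 6.16) and as TPM (5.756 against 5.745), which brings each library to the same sum. It had an FPKM of 3.74 in Normal, 0.141 in MI, 2.11 in SNAP, 0.283 in DTMS and 45.3 in S-DTMS. Here S-DTMS stood far above every other library, and MI and DTMS were the lowest. The fragments were 54, 2, 31, 4 and 652 in the same order, and the ratio of S-DTMS to DTMS was 160 (exact 95% interval 62.2 to 589).

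The largest fall was that of ENSRNOG00000016164, by -5.003 as deposited and -5.13 after scaling. Its FPKM was 3.40 in Normal, 7.09 in MI, 1.58 in SNAP, 35.98 in DTMS and 0.153 in S-DTMS. DTMS was the highest library and S-DTMS the lowest, and the 3 hearts without the suture lay between them. With 921 fragments in DTMS and 4 in S-DTMS, the ratio of DTMS to S-DTMS was 234 (exact 95% interval 91.3 to 862).

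ENSRNOG00000061850 changed by -4.92 as deposited and -5.08 after scaling. Its FPKM was 9.07 in Normal, 16.8 in MI, 81.6 in SNAP, 46.4 in DTMS and 0.570 in S-DTMS. SNAP was the highest and S-DTMS the lowest library. The gene had 80 fragments in DTMS and 1 in S-DTMS over an implied length of 103 bases, and the ratio of DTMS to S-DTMS was 81.5 (exact 95% interval 14.2 to 3258).

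**Figure D3:**
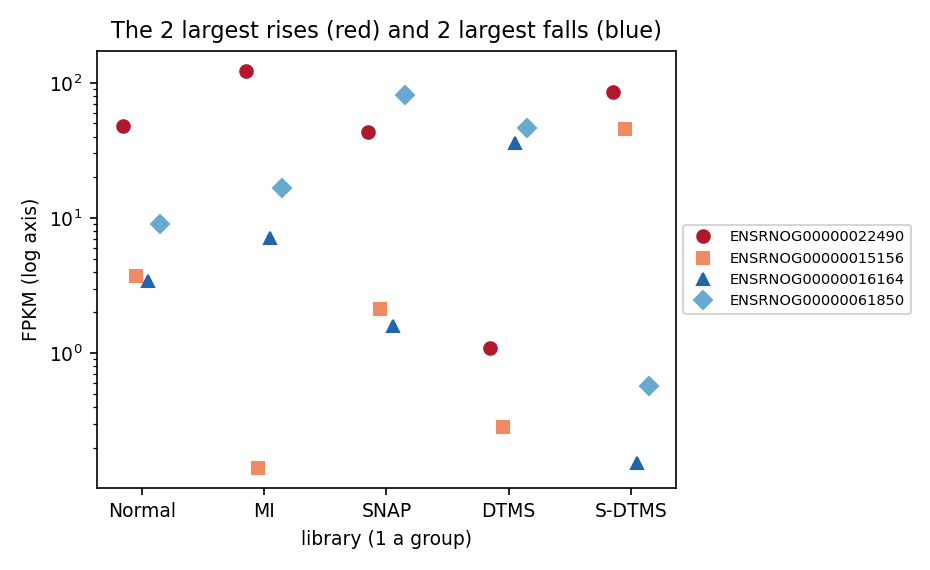
FPKM on a log axis of the 2 genes with the largest rise (red and orange) and the 2 with the largest fall (dark and light blue) from DTMS to S-DTMS, in each of the 5 libraries, 1 library a group and no error bars. ENSRNOG00000022490 is low in DTMS alone (1.09), ENSRNOG00000015156 is high in S-DTMS alone (45.3), and both falling genes have their lowest value in S-DTMS (0.153 and 0.570).

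The 12 largest rises, of 466 higher genes that reached an FPKM of 10, ranged from 3.93 to 5.37 on log2(FPKM + 1). After scaling, S-DTMS was the highest of the 5 libraries in 9 of the 12, and DTMS the lowest in 8. Their median scaled FPKM was 9.84 in Normal, 4.77 in MI, 23.1 in SNAP, 2.29 in DTMS and 69.0 in S-DTMS. The 12 largest falls, from 3.68 to 5.003 in size among 319 such lower genes, had S-DTMS as the lowest library in all 12 and DTMS as the highest in 6. Their median scaled FPKM was 26.96 in Normal, 25.3 in MI, 54.1 in SNAP, 44.3 in DTMS and 1.27 in S-DTMS. The choice of genes by these 2 libraries favours such places for both.

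The levels of the same genes were also read in Normal, MI and SNAP. Over the 785 higher genes, the median scaled FPKM was 7.01 in Normal, 4.89 in MI, 5.91 in SNAP, 3.96 in DTMS and 13.7 in S-DTMS. Over the 635 lower genes, it was 7.50 in Normal, 7.98 in MI, 7.40 in SNAP, 10.8 in DTMS and 2.28 in S-DTMS. The medians over all 13059 genes lay between 8.13 and 8.53. Since the sets were chosen by S-DTMS against DTMS, the choice favours finding these libraries at opposite ends. At these medians the distance to Normal, MI and SNAP was larger for S-DTMS than for DTMS.

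**Figure D4:**
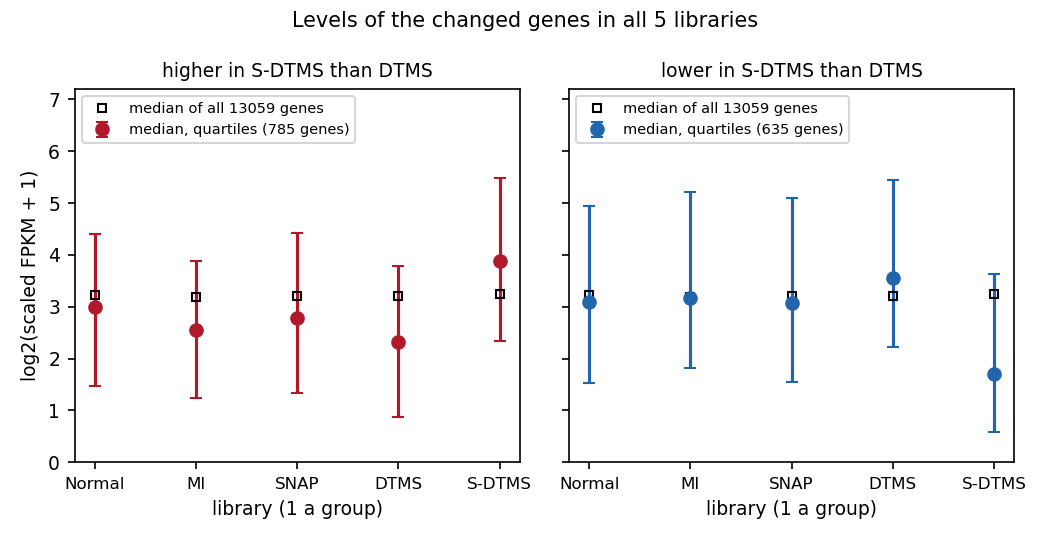
Median (filled points) and quartiles (bars) of log2(scaled FPKM + 1) in each library, over the 785 genes higher (left) and the 635 genes lower (right) in S-DTMS than in DTMS, with the median of all 13059 genes as open squares. The bars show the spread over genes, not over rats. S-DTMS has the highest median on the left (3.88) and the lowest on the right (1.71), and DTMS the lowest on the left (2.31) and the highest on the right (3.56), an order that the choice of genes by these 2 libraries favours.

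Gene by gene, S-DTMS was the library outside the range of Normal, MI and SNAP more often than DTMS. Of the 785 higher genes, S-DTMS alone was outside that range at 369 (47.01%), DTMS alone at 89 (11.3%), both at 282 (35.9%) and neither at 45 (5.73%). Of the 635 lower genes, the numbers were 226 (35.6%), 73 (11.5%), 319 (50.2%) and 17 (2.68%). Over all genes tested the shares were 34.5%, 12.01%, 32.2% and 21.3% in this order. S-DTMS was the highest of the 5 libraries at 646 of the higher genes and the lowest at 542 of the lower genes, positions that the choice of genes favours. Over all 13059 genes it was the highest at 4356 and the lowest at 3755.

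With a margin of a log2 change of 1 from each of the 4 other libraries on both scales, S-DTMS was above at 222 genes (1.70%) and below at 147 (1.13%). DTMS was above the 4 others by this margin at 29 genes (0.222%) and below at 18 (0.138%).

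SNAP against MI compares hearts with and without SNAP in the absence of the suture, and its difference is taken between other libraries than those compared here. The genes entering it are still those that reached an FPKM of 1 in S-DTMS or DTMS, and the scaling uses all 5 libraries. With the filter on SNAP and MI themselves, SNAP was higher at 319 and lower at 416 of 12903 genes on both scales. The route differed, as SNAP was injected there and given through a reservoir and the suture in S-DTMS, and no vehicle injection is described for MI. That the SNAP heart had no suture rests on its label. By the same limit on both scales, SNAP exceeded MI at 271 of 13059 genes (2.08%) and was below it at 327 (2.50%). Of the 785 genes that were higher with SNAP in the suture, 92 (11.7%) were also higher without the suture and 32 (4.08%) were lower there. Of the 635 lower genes, 22 (3.46%) were higher and 61 (9.61%) lower. Both directions were thus above the shares over all genes in both sets, and the matching direction was the more frequent one. The remaining 661 higher genes and 552 lower genes did not pass the limit in hearts without the suture. With a pseudocount of 0.1 in place of 1, the higher set grew to 1169 genes. It held 171 genes higher and 128 lower in SNAP, a narrower gap between the directions. The lower set grew to 898 genes and held 59 higher and 149 lower in SNAP. The shares over all genes at this pseudocount are not given here.

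Taken from the other side, the 271 genes higher in SNAP than in MI changed by a median of 0.58 from DTMS to S-DTMS after scaling, with 92 higher (33.9%) and 22 lower (8.12%). Their median scaled FPKM was 4.78 in MI, 18.1 in SNAP, 8.47 in DTMS and 11.98 in S-DTMS. The 327 genes lower in SNAP than in MI changed by a median of -0.27, with 32 higher (9.79%) and 61 lower (18.7%). Their median scaled FPKM was 7.14 in MI, 2.26 in SNAP, 4.06 in DTMS and 3.51 in S-DTMS. In both classes the step from DTMS to S-DTMS was smaller than that from MI to SNAP, by which the genes had been chosen. Over all genes the median change was 0.03, with 6.01% higher and 4.86% lower. Both directions were above these shares in both classes.

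When both scales had to reach 2, 45 of all 13059 genes were higher with SNAP in hearts without the suture and 26 were lower. In sutured hearts, 124 of the same 13059 genes rose with SNAP at this limit and 94 fell. The 45 and the 124 genes higher with the suture had 16 in common (35.6% of the 45 and 12.9% of the 124). The 26 and the 94 lower genes had 5 in common (19.2% of the 26 and 5.32% of the 94). Opposite directions at this limit were found for 1 gene higher and 3 genes lower in S-DTMS.

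**Figure D5:**
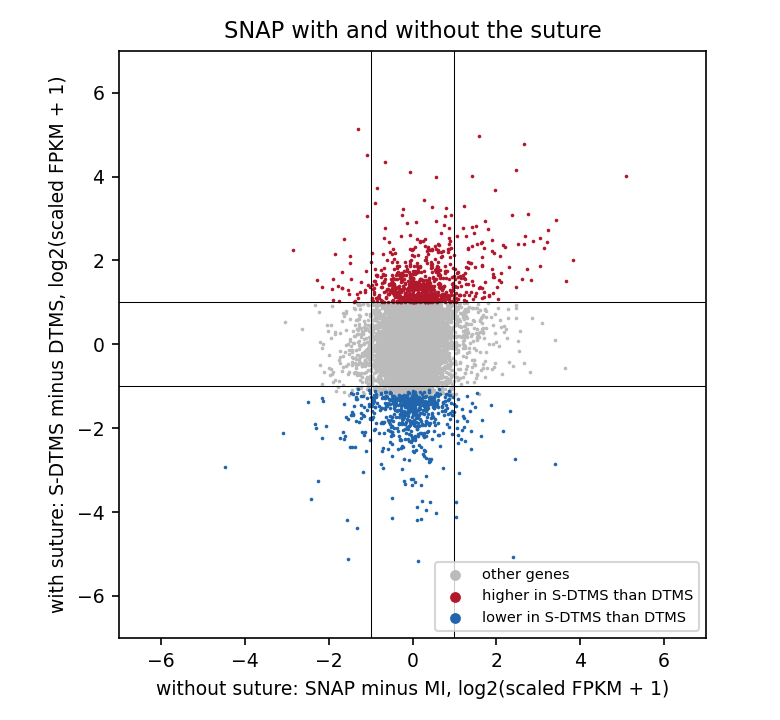
Change with SNAP in sutured hearts (S-DTMS minus DTMS, vertical axis) against the change in hearts without the suture (SNAP minus MI, horizontal axis), both on log2(scaled FPKM + 1), for 13059 genes. Thin lines mark a change of 1 in either direction. Most red (785) and blue (635) points lie between the vertical lines, and red points are more frequent on the right than on the left beyond them.

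MI against Normal is also a difference between other libraries, with the same filter on S-DTMS and DTMS and the same scaling. With the filter on MI and Normal themselves, MI was higher at 304 and lower at 494 of 13201 genes on both scales. The counts that follow use the filter on S-DTMS and DTMS. MI exceeded Normal at 239 of the genes tested (1.83%) and was below it at 409 (3.13%). These 409 genes changed by a median of 0.53 from DTMS to S-DTMS after scaling, beside 0.03 over all genes. Of the 409, 133 were higher (32.5%) and 47 lower (11.5%), both above the shares over all genes (6.01% and 4.86%). Their median scaled FPKM was 15.8 in Normal, 4.18 in MI, 6.99 in SNAP, 7.42 in DTMS and 9.08 in S-DTMS. S-DTMS was thus the nearest of the 4 infarcted libraries to Normal at this median and still below it.

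The 239 genes higher in MI than in Normal changed by a median of -0.44 from DTMS to S-DTMS after scaling. S-DTMS was below DTMS at 64 of them (26.8%) and above it at 34 (14.2%), both above the shares over all genes (4.86% and 6.01%). Their median scaled FPKM was 1.95 in Normal, 8.52 in MI, 4.29 in SNAP, 5.03 in DTMS and 3.55 in S-DTMS. The choice of genes fixes the distance between Normal and MI, and the order of SNAP, DTMS and S-DTMS between them is a description of 1 library each.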

How the data were processed

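RNA of left ventricular wall was sequenced by the authors on an Illumina NovaSeq instrument and deposited as FPKM per gene. The submitters' processing notes name HTSeq and the build mm9, a mouse build, whereas the identifiers are those of rat genes; the aligner is not given in the sources used here. According to the methods, the authors called genes with edgeR, with a fold limit (read here as a log2 value of 1) and a q value. The paper's figure legend states more than 1 biologically independent replicate for this comparison, whereas 1 library a group was available here. The q value needs replicates and was not computed here.

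Columns were matched to groups by the sample descriptions. Changes are differences of log2(FPKM + 1) between S-DTMS and DTMS, over genes that reached an FPKM of 1 in either library, both as deposited and scaled by the median of ratios over the 5 libraries. Fragments were worked out from the FPKM values. The commonest ratio of low values gave the relative depths, and the totals were those that made gene lengths whole, as held for 97.9% of 6210 genes. Whole fragments were found for all 20304 genes above 0, with lengths of at least 50 bases searched. Intervals are exact Clopper-Pearson intervals at 95% and cover counting error only. The scripts were tested on simulated data.

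The groups compared, the limit, the filter, 41 gene lists and the alternatives were chosen with earlier results of these data known. The lists and their markers were not analysed, since 0 of 20646 identifiers matched the reference table, and the rule for named genes (the largest changes among genes reaching an FPKM of 10) was applied without its condition on symbols, printing 2 rises and 2 falls. The tools were pandas 2.3.3, NumPy 2.4.6, Matplotlib 3.10.9 and SciPy 1.17.1 under Python 3.11.15.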

Additional observations from a re-analysis of the deposited data

Results flagged for a closer look

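The change with SNAP went in opposite directions with and without the suture for 2 of the 4 genes named by their size of change. ENSRNOG00000022490 changed by 5.37 from DTMS to S-DTMS and by -1.48 from MI to SNAP on log2(FPKM + 1). ENSRNOG00000061850 changed by -4.92 from DTMS to S-DTMS and by 2.22 from MI to SNAP. Among all genes past the limit of 1 on both scales, 32 were higher with SNAP in sutured hearts and lower in hearts without the suture, and 22 were lower in sutured and higher in unsutured hearts. These were 4.08% of the 785 higher and 3.46% of the 635 lower genes, beside 2.50% and 2.08% of all genes tested. The same direction was more frequent, with 92 genes higher and 61 lower in both. Each direction rests on 1 library a group, and the difference between the effects was not tested.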

How the results depend on the processing

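The scale decided the split. Scaling by the median of ratios changed the genes higher in S-DTMS from 1309 to 785 and those lower from 635 to 971, and the median change from 0.27 to 0.031, which this scaling brings near 0 by construction. Counts that require both scales have no separate value under this scaling, which is already part of them. As TPM the median was 0.38 and 74.5% of the counted genes were higher, with a pseudocount of 0.1 the median was 0.31, and without a filter on low values it was 0.14. With an FPKM of at least 5 the median was 0.32 and 413 genes were lower, also on both scales, since fewer genes entered. A minimum of 20 fragments, added after seeing the data, left 677 higher and 533 lower genes on both scales. The median change of all genes and the changes of the 4 named genes kept their sign under the 6 alternatives. The named genes were chosen for their size of change, and a count of genes has no sign. Of the alternatives, only the median of ratios turned the balance of counted genes, with 44.7% of them higher. The 4 overlaps with SNAP against MI moved most with a pseudocount of 0.1, which also enlarged the sets to 1169 higher and 898 lower genes. The overlaps became 171 and 128 genes for the higher set and 59 and 149 for the lower set, each given as higher and then lower in SNAP. The shares over all genes at this pseudocount are not given here, so the size of these overlaps could not be judged. Without a filter no count of genes could change, because a gene below 1 in both libraries cannot reach the limit at a pseudocount of 1. The medians of the gene lists were not run for want of gene symbols. Genes seen in 1 library alone had a median of 3 fragments there, and the part of depth in them was not tested. No paired analysis was possible because there is only 1 library in each of the groups.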
